A study of Mus musculus with 2 samples.

Results

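The cytosolic ribosome is built from a large and a small subunit, each a scaffold of ribosomal RNA covered by proteins that are encoded by genes scattered over the genome. Those genes are transcribed together, and their messenger RNAs begin with a run of pyrimidines, the terminal oligopyrimidine tract, through which the kinase mTOR sets their translation. In the pituitary, whose endocrine cells secrete large amounts of peptide hormone, the ribosome is the machine that makes the hormone precursors. The members described here were the gene rows whose deposited name was that of a cytosolic ribosomal protein (Rpl or Rps with a number and at most 1 letter a, l or x, Rplp0 to Rplp2, and Rpsa), so that kinases and pseudogenes were left out. They numbered 80 of the 31784 gene rows, 49 of the large and 31 of the small subunit. The names were checked against the mouse RefSeq annotation, in which 79 were current symbols and 1, Rps3a, was an older symbol. The name rule reads no measured value, but the set was picked with earlier results of these data known.

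The study compared Brdt-/- with wild-type pituitaries on 2 Agilent arrays of the two-colour kind. Brdt-/- mice carry 2 copies of the tm1a knockout-first allele, in which a lacZ gene trap and a floxed, promoter-driven neo cassette lie in an intron of Brdt, a bromodomain gene best known from male germ cells. Both genotypes were on a C57BL/6 background and 8 weeks old, the wild-type mice are labelled male, and no sex is given for the Brdt-/- mice. An array held RNA of 1 Brdt-/- pool and 1 wild-type pool, every pool being made from 3 mice. The Brdt-/- pool carried Cy5 on array 1 and Cy3 on array 2. The cassette is present in every cell of the knockout animals, so the comparison is not limited to a cell type. In RNA of whole tissue, fewer cells of a type and less RNA per cell cannot be told apart. The deposited values are ratios with no intensities, so neither the level of a gene nor the presence of pituitary markers could be read from them.

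All values below are log2 ratios of Brdt-/- over wild type, array 1 before array 2, so that 0 means equal signal. The direction is a likely one, not a settled one: both deposited columns were taken as Cy5 over Cy3, and the sign of array 2 was turned. Its basis is the labelled dyes together with 10 spike-in rows, all of which had the same sign in both columns (r = 0.9997 across these rows). With both columns as Cy3 over Cy5 every sign would invert. With array 2 as deposited only the sign of that array turns. Over all gene rows Pearson's r between the arrays was -0.26 with array 2 turned and 0.26 as deposited. Thus the turned ratios ran in opposite directions more often than not, and the reason was not tested. Counts of genes on the same side on both arrays, and orders of genes by mean, then change, and such values are given for the main counts and genes. Brdt itself was at -0.30 and -0.43, and its value checks little, since the place of its probe in the gene is not known here. Errors marked ± are SDs over the 2 arrays.

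Ribosomal protein genes lay close to equal in both genotypes on both arrays, and their medians lay slightly to the Brdt-/- side of those of all gene rows. Their median ratio was 0.042 on array 1 and 0.123 on array 2, against -0.030 and 0.034 over all gene rows. The median of the members' mean ratios was 0.084, against 0.0025 over all gene rows, and with array 2 as deposited it was -0.052, so the side of the displacement depends on the orientation. On array 1, 51 of the 80 were above 0, where 44.9% of all gene rows were, and on array 2, 62 were, where 57.1% of all gene rows were.

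The members lay higher on both arrays in 37 cases and lower on both in 4, while 38 had opposite signs and 1, Rpl35, was exactly 0 on array 2. Over all gene rows 21.6% were higher on both arrays, 19.5% were lower on both and 58.7% had opposite signs. Among rows with a protein-coding RefSeq symbol the shares were 23.4% higher and 18.4% lower. The members' 46.25% was thus above the share of all rows for the higher direction, and their 5% below it for the lower. With array 2 as deposited, 13 members were positive and 25 negative on both arrays, against 23.3% and 35.4% of all gene rows, so both counts were below the shares of all rows. Which direction holds more members thus depends on the orientation of array 2.

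**Figure D1:**
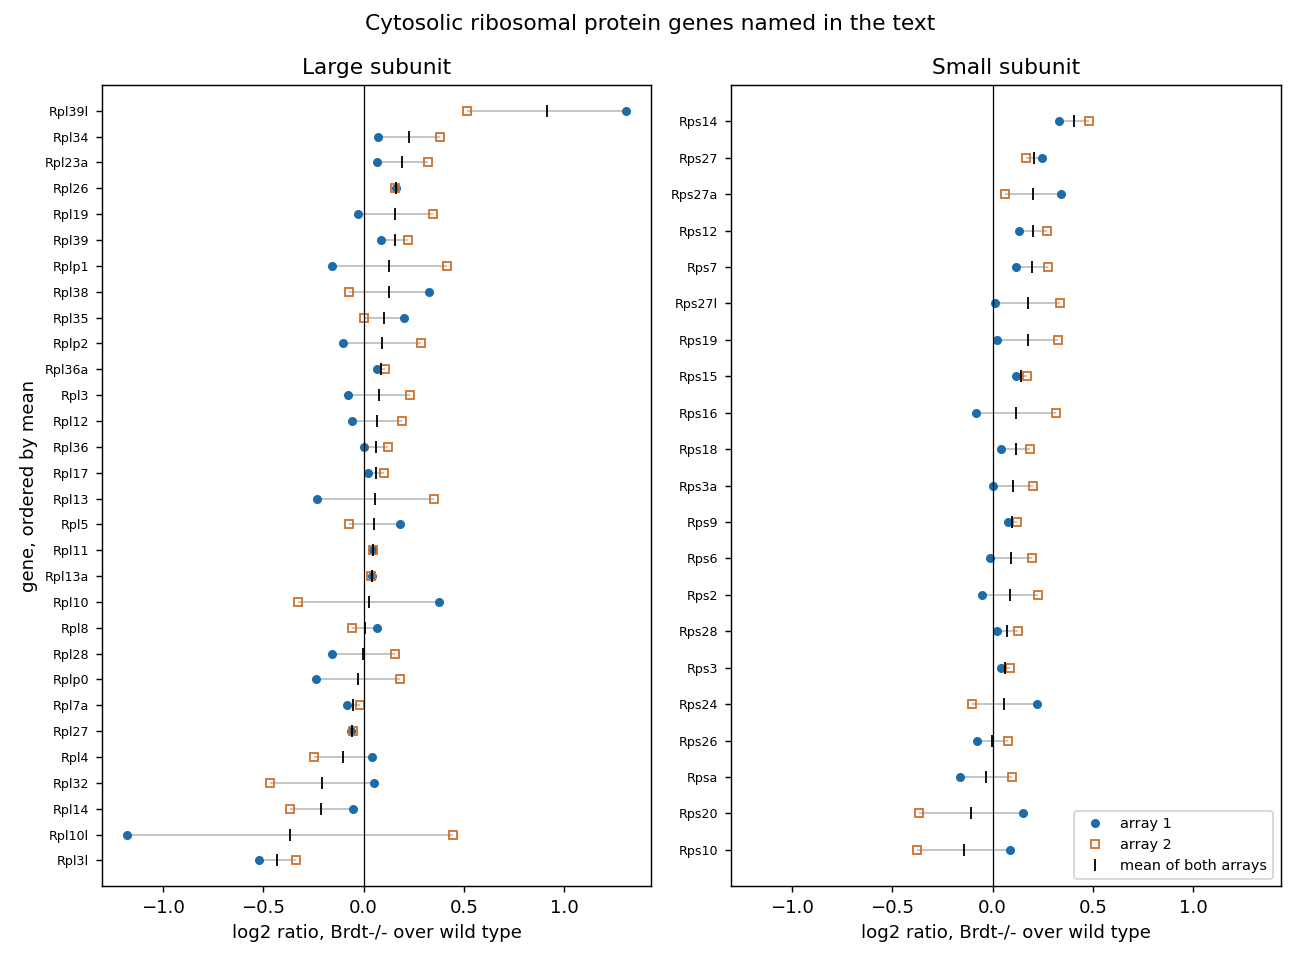
Log2 ratio of Brdt-/- over wild type (x axis) for the large and small subunit genes named in the text (y axis, ordered by mean), with array 1 as filled circles, array 2 as open squares and the mean as a tick. Most genes lie between -0.4 and 0.4, and the paralogs Rpl39l, Rpl10l and Rpl3l lie outside the bulk; with array 2 as deposited every square would change sign.

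No member passed the test across all genes. With limma's moderated test and Benjamini-Hochberg adjustment over 31784 rows, 0 of the 80 passed 0.05 (background 0%), and every adjusted p was 0.999995 or above. At an unadjusted p under 0.05 only Rpl39l passed, in the higher direction, where 1.03% of all gene rows passed and 2.21% did so in either direction. Limma called 0 members after adjustment with array 2 as deposited as well. The ordinary one-sample statistic called 0 members after adjustment, and 1 with array 2 as deposited. On simulated data, whose changed genes had less spread than the real rows, limma with 2 arrays missed moderate changes. The missed ones included changes wider than the mean ratio of any member. A count of 0 here thus does not show that the genes were equal. Past 1.2-fold and higher on both arrays were Rpl39l and Rps14 (background 2.43%), and past 1.2-fold and lower on both was Rpl3l (background 2.91%). Past 1.5-fold on both arrays were 0 members in either direction, where 0.359% of all gene rows were higher and 0.453% lower.

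The spread of the members differed between the arrays. On array 1 the median size of their ratios was 0.084, against 0.187 over all gene rows, and 8 of 80 were past 1.2-fold, where 38.3% of all rows were. On array 2 that median was 0.180, against 0.161 over all gene rows, and 28 were past 1.2-fold, where 31.9% of all rows were. Past 1.5-fold were 2 members on array 1 (Rpl39l and Rpl10l, background 13.8%) and 0 on array 2 (background 9.19%). Across the 80 members, which are not independent replicates and share the 2 arrays, Pearson's r between the arrays was -0.04. Without the 4 paralogs described below it was -0.26, the same as the -0.26 of all gene rows. With array 2 as deposited, each of these r values has the same size and the other sign.

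**Figure D2:**
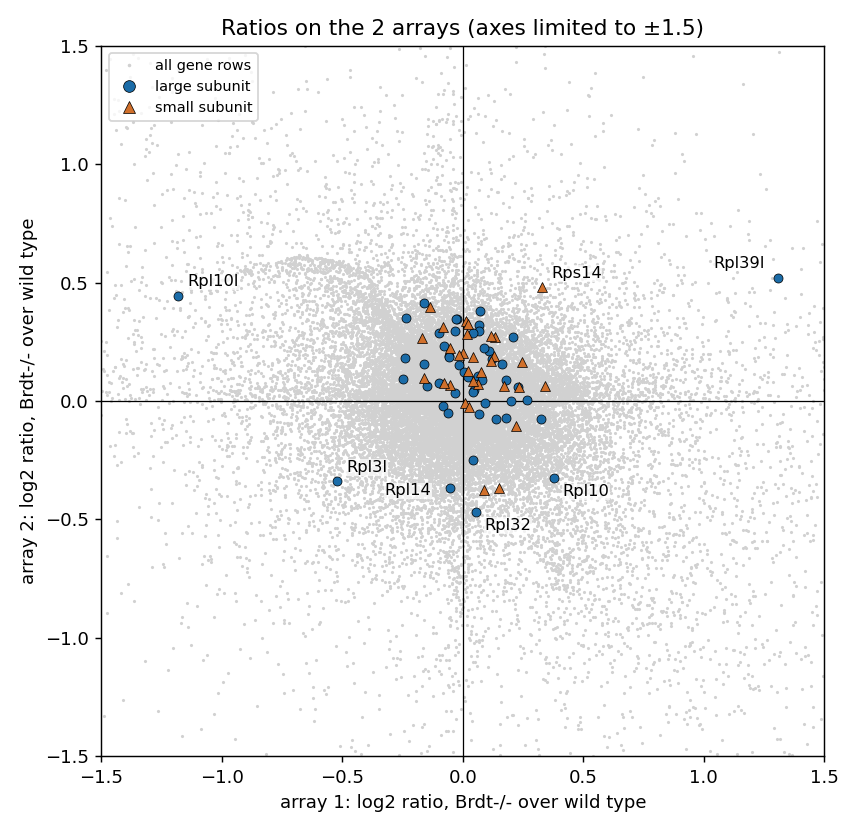
Log2 ratio of Brdt-/- over wild type on array 1 (x axis) against array 2 (y axis), with all gene rows as grey dots, large subunit genes as circles and small subunit genes as triangles; rows beyond 1.5 in size are outside the axes. Of the 80 members 62 lie above the horizontal zero line, the named Rpl3l, Rpl14, Rpl10 and Rpl32 lie below it, and with array 2 as deposited the picture would be mirrored top to bottom.

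The subunits were close to each other. The 49 large subunit genes had medians of 0.042 and 0.105, and 19 were higher and 4 lower on both arrays. The 31 small subunit genes had medians of 0.042 and 0.166, and 18 were higher and 0 lower on both. Over all gene rows the shares were 21.6% higher and 19.5% lower. As deposited, 8 large subunit genes were positive and 17 negative on both arrays, and 5 small subunit genes were positive and 8 negative. Large minus small subunit, the difference of the medians was 0.0005 on array 1 and -0.062 on array 2, which averaged -0.031 ± 0.044 (SD over both arrays). The smallest two-sided p of an exact sign permutation over 2 arrays is 0.5, so no subunit difference of any size could pass such a test here.

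Among the small subunit genes, Rps14 had the highest mean with array 2 turned, and a mean of -0.08 with array 2 as deposited. Its protein lines the path on which messenger RNA leaves the small subunit, and loss of 1 copy of its gene underlies the anaemia of the human 5q deletion syndrome. Rps14 was at 0.33 and 0.48, a mean of 0.41 ± 0.11 (1.32-fold; limma's unadjusted p = 0.074), and it was the small subunit gene with the highest ratio on array 2 and the second highest on array 1. Also at the messenger exit, Rps28 was at 0.020 and 0.125, and Rps26 at -0.079 and 0.074.

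At the messenger entry, where Rps2, Rps3 and Rps9 form the channel and help to unwind the incoming RNA, the ratios were small. Rps3 was at 0.042 and 0.087, Rps9 at 0.074 and 0.121, and Rps2 at -0.051 and 0.225. The beak of the small subunit held both high and low members. Rps27a, made as a fusion with ubiquitin, was at 0.34 and 0.064, and Rps12 at 0.13 and 0.27. Rps10 was at 0.087 and -0.375, the lowest mean of the small subunit with array 2 turned, and its mean was 0.23 with array 2 as deposited.

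Of the proteins of the head that face transfer RNA, Rps15 and Rps18 were higher on both arrays, at 0.12 and 0.17 and at 0.044 and 0.188. Rps16 was at -0.082 and 0.314 and Rps20 at 0.15 and -0.37, so each had opposite signs on the arrays. Rps6, the substrate of the S6 kinases that act below mTOR, was at -0.015 and 0.196. Other small subunit genes among the highest were Rps27, at 0.25 and 0.17, and Rps7, at 0.12 and 0.28. For each of them both arrays lay on the Brdt-/- side.

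The large subunit genes without a tissue-limited role had small mean ratios. Rpl34, among the highest of them, was at 0.072 and 0.380. Genes of the peptide exit tunnel and its mouth, where the new chain emerges and the signal recognition particle docks, were higher on both arrays in 5 of 8 cases, where 21.6% of all gene rows were, and with array 2 as deposited 1 was positive and 1 negative on both. Of these, Rpl23a was at 0.068 and 0.319, Rpl26 at 0.16 and 0.16, and Rpl39 at 0.087 and 0.222. Rpl19 was at -0.030 and 0.346, and Rpl4 at 0.044 and -0.248. The list had medians of 0.056 and 0.190.

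The P stalk, an arm of the large subunit that recruits elongation factors, was split by array. Rplp0, its base, was at -0.24 and 0.18, Rplp1 at -0.16 and 0.41, Rplp2 at -0.10 and 0.29, and Rpl12, next to the base, at -0.059 and 0.191. All 4 were below 0 on array 1 and above 0 on array 2, which means that all 4 were negative in both columns as deposited. Over all gene rows 58.7% had opposite signs on the arrays, and 35.4% were negative on both as deposited. Their means ran from -0.028 for Rplp0 to 0.127 for Rplp1.

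Near the peptidyl transferase centre, Rpl10, which closes the assembly of the large subunit, was at 0.38 and -0.33. That gap of 0.70 was among the 4 widest of all members, together with those of Rpl10l, Rpl39l and Rpl13 (-0.23 and 0.35). Rpl3 was at -0.079 and 0.233, Rpl8 at 0.069 and -0.055, and Rpl36a at 0.065 and 0.105. In the particle with 5S RNA, whose free form binds the p53 regulator Mdm2, Rpl11 was at 0.045 and 0.048 and Rpl5 at 0.18 and -0.07. Mdm2 itself, named for this role after its values were seen, was at -0.06 and -0.20.

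With array 2 turned, 4 of the 80 ribosomal genes were lower on both arrays, where 19.5% of all gene rows were. All 4 were of the large subunit, which holds 49 of the 80. With array 2 as deposited, 17 large and 8 small subunit genes were negative on both, where 35.4% of all gene rows were. The genes below are those of the turned orientation. Rpl14 was at -0.055 and -0.368 (mean -0.21 ± 0.22, 1.16-fold lower; limma's unadjusted p = 0.304), with array 2 carrying most of it. Rpl27 was at -0.061 and -0.052, and Rpl7a at -0.081 and -0.019. The fourth was the paralog Rpl3l. Rpl32 had a mean as low as that of Rpl14 but opposite signs, at 0.054 and -0.468. Next in the order of genes with the same sign on both arrays came members just above 0: Rpl13a at 0.042 and 0.039, Rpl17 at 0.020 and 0.101, and Rpl36 at 0.003 and 0.121.

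The widest ratios on array 1 belonged to Rpl39l, Rpl10l and Rpl3l, paralogs that are used in few tissues. On array 2 Rpl39l was again the widest, but Rps14 and Rpl32 were wider than Rpl10l and Rpl3l. Rpl39l, a testis paralog of the tunnel protein Rpl39, was at 1.31 and 0.52, a mean of 0.91 ± 0.56 (1.88-fold; limma's unadjusted p = 0.035), while Rpl39 had a mean of 0.15 ± 0.10. Rpl3l, the paralog of Rpl3 in skeletal and heart muscle, was at -0.52 and -0.34, a mean of -0.43 ± 0.13 (1.35-fold lower; limma's unadjusted p = 0.067), while Rpl3 had a mean of 0.08 ± 0.22. Rpl10l, the testis paralog of the X-linked Rpl10, was at -1.18 and 0.45, so the arrays had opposite signs and its mean of -0.37 ± 1.15 has no settled sign.

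Rps27l, a paralog of Rps27 that p53 induces, was at 0.013 and 0.337, while Rps27 was at 0.25 and 0.17. None of these genes passed limma's adjusted threshold. With array 2 as deposited, Rpl39l had a mean of 0.40, Rpl3l of -0.09, Rpl10l of -0.81 and Rps27l of -0.16. The muscle marker genes did not go one way: of 5 measured, Ckm was at -0.95 and -1.43 and lower on both arrays, Myh4 (0.30 and 0.26) and Acta1 (0.02 and 0.04) were higher on both, and the other two had opposite signs. Their part in the value of Rpl3l was not tested.

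**Figure D3:**
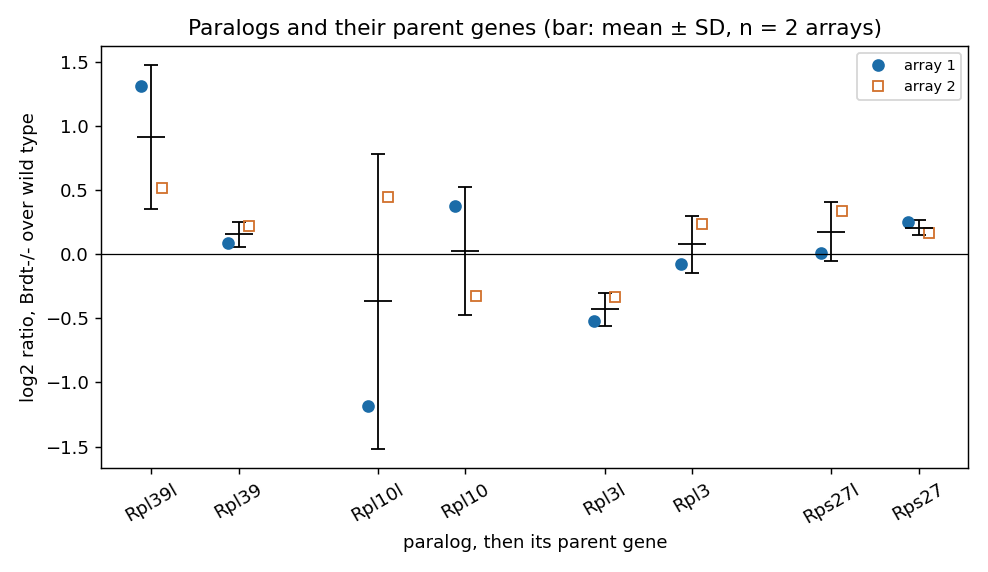
Log2 ratio of Brdt-/- over wild type (y axis) for 4 paralogs, each left of its parent gene, with array 1 as filled circles, array 2 as open squares and bars for the mean ± SD (n = 2 arrays). Rpl39l was above and Rpl3l below 0 on both arrays, and the arrays disagreed in sign for Rpl10l; with array 2 as deposited every square would change sign.

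The promoters of these genes are shown because ribosomal protein genes share features of their start, and the paralogs need not. RefSeq's table for assembly GRCm38.p6 held promoters for 59 of the 80 members, at 71 annotated starts. The windows below run from 15 bases before to 15 bases after the annotated start, 5′ to 3′ on the gene's strand. Capitals mark the first pyrimidine run CTTTC of a window, a letter sequence common in terminal oligopyrimidine tracts. The window of Rps27 holds a later CTTTC, nearer the annotated start, that is left in lower case. Rpl39l, Rpl10l and Rps27l are each set before the parent gene, Rpl3l has no window of Rpl3 beside it, and 4 members with the run close to the start follow.
Rpl39l, chr16:10170213-10170242, plus strand: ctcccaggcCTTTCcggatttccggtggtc
Rpl39, chrX:37085208-37085237, minus strand: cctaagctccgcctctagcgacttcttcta
Rpl10l, chr12:66284387-66284416, minus strand: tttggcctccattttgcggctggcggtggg
Rpl10, chrX:74270801-74270830, plus strand: gttgttacagtggaagataggccgcctata
Rps27l, chr9:66946071-66946100, plus strand: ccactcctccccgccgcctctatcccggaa
Rps27, chr3:90213634-90213663, minus strand: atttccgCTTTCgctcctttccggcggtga
Rpl3l, chr17:24727811-24727840, plus strand: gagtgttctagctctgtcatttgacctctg
Rpl38, chr11:114668565-114668594, plus strand: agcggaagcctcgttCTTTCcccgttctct
Rplp2, chr7:141447636-141447665, plus strand: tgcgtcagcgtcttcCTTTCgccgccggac
Rpl28, chr7:4792950-4792979, plus strand: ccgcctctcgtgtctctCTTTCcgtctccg
Rps10, chr17:27635230-27635259, minus strand: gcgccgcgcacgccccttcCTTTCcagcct

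In this window of 30 bases, searched on the gene's strand, CTTTC was found for 17 of the 59 members (28.8%), against 4.76% of the 27025 genes in the table and 4.43% of its protein-coding genes. Of the 4 paralogs it was found for Rpl39l, where it began at -6 and so lay before the annotated start. A match in the window is therefore not always part of the annotated transcript. In the whole 300 bases, searched on both strands, CCGGAA, the core of sites for ETS factors such as GABP, was found for 33 of the 59 (55.9%), against 16.7% of all genes in the table and 20.9% of its protein-coding genes. GGGCGG, the core of Sp1 sites, was found for 35 (59.3%), against 38.2% of all and 49.2% of protein-coding genes. AAGATGGC, part of the YY1 motif, was found for 5 (8.47%), against 3.19% and 3.57%, and TATAAA for 6 (10.2%), against 15.7% and 14.8%. Each motif was counted by itself, and CTTTC can share bases with the reverse of CCGGAA. A match is a string of letters and was not taken as a bound site.

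Median mean ratios of members with and without these letters lay between 0.058 and 0.118, and they were furthest apart for CCGGAA. Members with CTTTC anywhere in the window had a median mean ratio of 0.066, and 6 of 17 were higher on both arrays. For members without it the values were 0.089 and 20 of 42. With CCGGAA the median was 0.118 and 16 of 33 were higher on both, against 0.058 and 10 of 26 without it. With GGGCGG the median was 0.083 and 13 of 35 were higher, against 0.094 and 13 of 24 without it. With AAGATGGC these were 0.083 and 4 of 5, against 0.086 and 22 of 54. With TATAAA they were 0.079 and 3 of 6, against 0.090 and 23 of 53. Over all gene rows 21.6% were higher on both arrays. These differences were not tested, and the counts depend on the orientation of array 2.

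By conservation, the genes were divided into those whose proteins occur in bacteria, archaea and eukaryotes, called universal, and the rest. The 18 universal large subunit genes had medians of 0.044 and 0.071, of which 7 were higher and 0 lower, here and below on both arrays. The 14 universal small subunit genes had medians of 0.053 and 0.145, with 9 higher and 0 lower. The other 44 members, paralogs left out, had medians of 0.021 and 0.140, with 19 higher and 3 lower. The 19 mouse genes whose human counterparts are mutated in Diamond-Blackfan anaemia, a red cell disorder of ribosome assembly, had medians of 0.078 and 0.087, with 11 higher and 1, Rpl27, lower, against 21.6% and 19.5% of all gene rows. As deposited, 3 of them were positive and 3 negative. Within them Rps19, the gene most often affected in patients, was at 0.023 and 0.327, and Rps24 at 0.22 and -0.10.

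Rows outside the name rule were set beside the members. The 49 rows named as ribosomal protein pseudogenes had medians of 0.0013 and 0.151. Of the 49, 18 were higher and 5 lower on both, against 21.6% and 19.5% of all gene rows. Rpl19-ps4 was the lowest of the 49 at -0.95 and -1.70, while Rpl19 was at -0.030 and 0.346. Probes of a gene and of its processed copies can share targets, so a ratio of either may hold signal of both. Over the 49 pairs of a pseudogene row and its parent, with 30 parents, r was 0.003 on array 1 and -0.015 on array 2. Signs matched in 27 pairs on array 1 and 31 on array 2. Shared signal was not tested. The 77 mitochondrial ribosomal protein genes, which serve the separate ribosome of that organelle, had medians of -0.035 and 0.124. Of the 77, 23 were higher and 3 lower on both, against 21.6% and 19.5% of all gene rows. As deposited, 10 of the 77 were positive and 40 negative, against 23.3% and 35.4% of all gene rows. In that orientation 7 of the pseudogene rows were positive and 19 negative. Of cytosolic ribosomal proteins that the name rule leaves out, Fau was at -0.022 and 0.054 and Gnb2l1, now called Rack1, at 0.18 and -0.04.

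**Figure D4:**
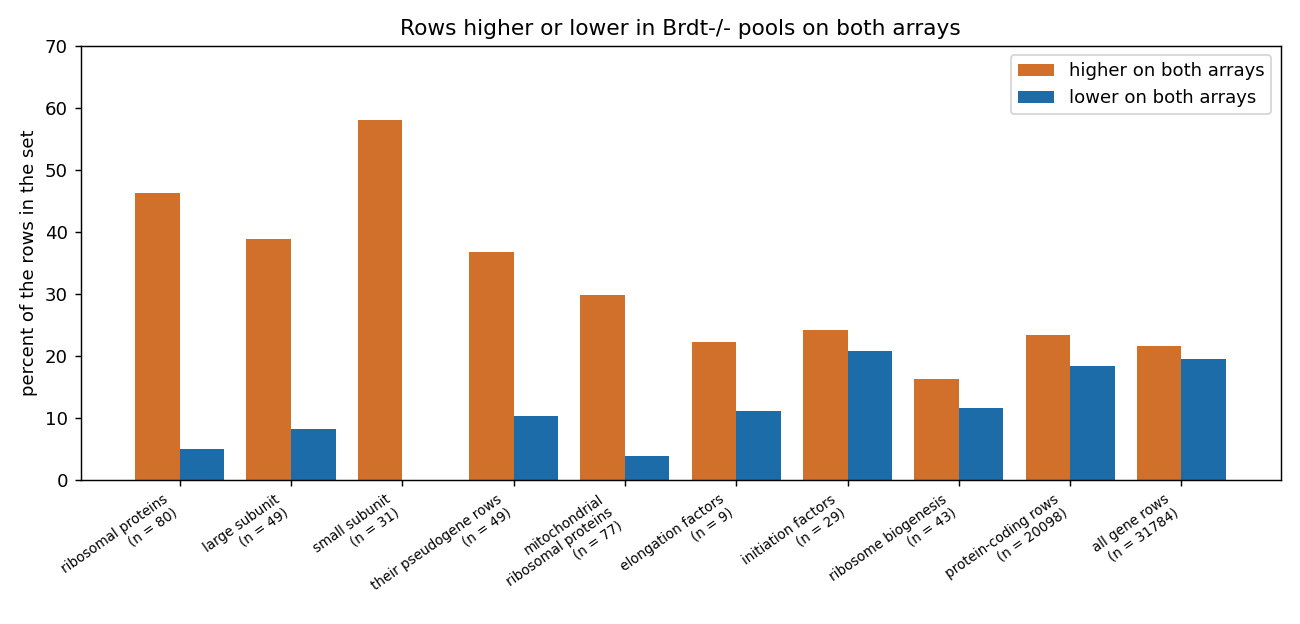
Percent of rows (y axis) that were higher (left bar of each pair) or lower (right bar) in Brdt-/- than in wild-type pools on both arrays, for the ribosomal protein genes, related gene sets and all gene rows (x axis, with the number of rows). The ribosomal protein genes stand at 46.25% higher and 5% lower, all gene rows at 21.6% and 19.5%; with array 2 as deposited the ribosomal protein genes stand at 16.25% positive and 31.25% negative, all gene rows at 23.3% and 35.4%.

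The counts for factors that build or work with the ribosome are read against the 21.6% higher and 19.5% lower of all gene rows. Of 9 elongation factor genes, 2 were higher and 1 lower on both arrays, with Eef2, the translocase, at 0.24 and 0.12 and Eef1a1, which delivers transfer RNA, at 0.00 and -0.21. Of 29 initiation factor genes, 7 were higher and 6 lower, near those shares, with Eif3e at 0.19 and 0.30 and Eif3j at -0.30 and -0.27. Of 43 ribosome biogenesis genes, 7 were higher, 5 lower and 31 of opposite signs, where 58.7% of all gene rows were. Their medians were -0.13 and 0.15. Ncl, the nucleolar protein nucleolin, was at 0.17 and 0.39 and Utp14a, of the small subunit processome, at -0.74 and -0.14. Of 19 genes of translational control and the Myc family, 2 were higher and 6 lower. The widest means were those of Eef2k, the kinase that inhibits Eef2, at 1.24 and -0.02, and Mycn at 1.02 and 0.06, both high on array 1 alone. Mtor, at -0.14 and 0.40, and Larp1, which binds the pyrimidine tract, at -0.03 and -0.16, were named for these roles after their values were seen. With array 2 as deposited, 6 biogenesis genes were positive and 25 negative on both, against 23.3% and 35.4% of all gene rows. In that orientation the counts were 2 and 4 for elongation factors and 7 and 9 for initiation factors. For translational control and the Myc family they were 6 and 5. No gene of these lists passed limma's adjusted threshold.

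Markers of cells that a dissected pituitary can hold were set beside the ribosomal genes. Of 7 neutrophil genes, 5 were higher and 1 lower on both, their medians being 3.62 and 0.45, and of 6 red blood cell genes 4 were higher and 0 lower, with medians of 0.16 and 1.16. Of 6 genes of cycling cells, 3 were higher on both, with medians of 0.60 and -0.09. Of 4 lymphocyte genes, 3 were lower on both, and of 5 macrophage genes 1 was higher and 1 lower. The anterior pituitary hormone genes had medians of 0.29 and -0.25, with 1 of 7 higher and 1 lower on both. Over all gene rows 21.6% were higher and 19.5% lower on both arrays. With array 2 as deposited, 1 neutrophil gene was positive and 0 negative on both, and 0 red blood cell genes were positive and 2 negative. Those counts were 3 and 0 for cycling cells, 0 and 1 for lymphocytes, 1 and 2 for macrophages and 4 and 1 for hormone genes. As deposited, 23.3% of all gene rows were positive and 35.4% negative on both. The part of these cells in the ribosomal ratios was not tested.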

How the data were processed

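The authors deposited 31840 rows of signed linear folds, 1 per gene name and array, and the scanning, correction and normalization behind them are not stated in the sources. Each deposited fold, a ratio of the 2 channels, was put on the log2 scale, the sign being carried over. After 56 control rows were left out, 31784 remained. Array 2, with the Brdt-/- pool in Cy3, was turned. This orientation was a choice made with both columns seen. The test against 0 was limma's moderated one (version 3.58.1, R 4.3.3), fitted with a mean alone, which leaves 1 residual degree of freedom, and used Benjamini-Hochberg adjustment over all rows at 0.05. Tested on simulated data, this procedure called large changes and missed moderate ones, among them changes wider than the mean ratio of any member. The simulated changed genes were given less spread than the real rows, so the test can miss more in the real data. The pools are biological replicates per the labels, and 2 arrays set the precision. Limma's p-values rest on the spread between the arrays, moderated towards a variance shared by all rows. Because the dyes were exchanged, that spread holds pool differences and any dye effect together. Lists are described by counts and medians, with no list test. Members, lists and roles were chosen with earlier results of these data known. Named genes were the 8 highest and 8 lowest means among members whose arrays had 1 sign, the 4 widest gaps, the extremes of each role, the paralogs and the widest means of other lists; others were named for a role after their values were seen. Rps23 and Rps4l were not analysed here, and values of a few further genes are left out. Alternatives concerned orientation, centring, scaling, membership, fold size and single arrays.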

Additional observations from a re-analysis of the deposited data

How the results depend on the processing

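The direction of the displacement hung on the orientation of array 2. With array 2 as deposited, the members higher on both arrays numbered 13 and those lower 25, and the median mean ratio was -0.052 over all members, -0.041 for the large and -0.060 for the small subunit, and the large minus small difference of these medians was 0.019, against -0.036 with array 2 turned. These follow from the turned sign itself. Centring each array on its median, scaling both to 1 spread, leaving out the paralogs and adding ribosomal proteins outside the name rule left each of these counts and medians on its side, with 35 to 40 members higher and 3 to 5 lower. Past 1.2-fold the counts were 2 higher and 1 lower, and past 1.5-fold 0 and 0, fewer by construction. With either array used alone 51 to 62 members were higher and 17 to 29 lower. Single arrays gave medians of 0.042 to 0.123 over all members, 0.042 to 0.105 for the large and 0.042 to 0.166 for the small subunit, and a subunit difference of -0.062 to 0.0005. The count of genes past limma's adjusted threshold was 0 in each fit run with moderation, 703 at an unadjusted p, and 2 with the ordinary one-sample statistic; with array 2 as deposited the last 2 counts were 3254 and 1, and the smallest adjusted p was 0.465. The members' r of -0.039 became -0.23 as Spearman's rho and -0.26 without the paralogs. Leaving out Rps14 and the member with a gap over 1, Rpl10l, chosen after seeing the data, left 36 members higher on both arrays. That count follows by construction, since Rpl10l had opposite signs on the arrays and was not among the members counted as higher. The test of the ratios against 0 is the paired analysis, and no unpaired one, without the replicate block, was possible because the channels are not given apart. The files hold no intensities, so a limit set by dim signal could not be examined.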

Other observations

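Some ribosomal protein genes had nearly the same deposited value in both columns; they were picked after their values were seen. Rpl28 had deposited folds of -1.117 and -1.116, Rpl27a of -1.024 and -1.023, and Rps26 of -1.056 and -1.053. After array 2 was turned their mean ratios lay between -0.0023 and -0.00065. Rpl26 and Rpl13a had nearly equal sizes of opposite sign, at 1.119 and -1.116 and at 1.030 and -1.027 as deposited, which gives means of 0.160 and 0.040 after turning.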
